A study of Rattus norvegicus with 8 samples.

Results

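Endothelial cells line the lumen of the arteriovenous fistula (AVF), and 10 of their genes were followed here in the outflow veins of rats. The genes were chosen by name: 6 mark the identity of the endothelium (Pecam1, Cdh5, Vwf, Erg, Eng and Egfl7) and 4 respond to blood flow (Nos3, Klf2, Klf4 and Edn1). Of these, 9 were matched by symbol among 32623 listed genes, and all 9 were among the 11682 genes abundant enough to be tested. Pecam1 was not analysed here. Sprague Dawley rats of both sexes had an AVF made by joining the end of the epigastric vein to the side of the femoral artery, and a bilayer nanofiber scaffold was wrapped around the vein next to the anastomosis. The scaffold carried β-aminopropionitrile (BAPN), an irreversible inhibitor of the collagen- and elastin-crosslinking lysyl oxidases, in 4 rats (BAPN 1 to 3 female, BAPN 4 male) and no drug in the other 4 (Vehicle 1 and 2 female, Vehicle 3 and 4 male). Every vein was collected at day 21 and gave 1 library of total RNA. Vehicle veins had both the fistula and the scaffold, so no vein without either was compared, and the ages of the rats are not given in the sources used here.

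The endothelium holds its identity through transcription factors of the ETS family, of which Erg is the member most restricted to endothelial cells in the vessel wall. These cells sense shear stress, the drag of flowing blood. Steady laminar shear raises the transcription factors Klf2 and Klf4, which in turn raise the nitric oxide synthase gene Nos3 and repress the gene of the vasoconstrictor endothelin-1, Edn1, whereas low or disturbed flow does the opposite. Veins moved into the arterial circulation are exposed to both.

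Sequence around the transcription start was at hand for 6 of the 10 genes, in 7 promoters because Egfl7 has a pair, from 250 bases before the start to 50 after it (RefSeq, build GRCr8). Pecam1, Cdh5, Vwf and Klf2 had no entry in the set of promoter sequences used. The promoters below, 3 of identity genes and 3 of flow-response genes, are shown to compare which of them hold GGAAG, letters read by ETS factors such as Erg. Capitals mark GGAAG, or CTTCC on the other strand, and a promoter without capitals has neither. The shorter ETS core GGAA was not searched for or marked, and it also occurs in the Klf4 and Edn1 windows. They belong to Nos3 (chr4:11706532-11706831, minus strand), Eng (chr3:36332029-36332328, plus strand), the upstream start of Egfl7 (chr3:29805381-29805680, plus strand), Erg (chr11:48251517-48251816, minus strand), Klf4 (chr5:75078543-75078842, minus strand) and Edn1 (chr17:22666638-22666937, minus strand), each written 5′ to 3′ on the strand of its gene.
Nos3: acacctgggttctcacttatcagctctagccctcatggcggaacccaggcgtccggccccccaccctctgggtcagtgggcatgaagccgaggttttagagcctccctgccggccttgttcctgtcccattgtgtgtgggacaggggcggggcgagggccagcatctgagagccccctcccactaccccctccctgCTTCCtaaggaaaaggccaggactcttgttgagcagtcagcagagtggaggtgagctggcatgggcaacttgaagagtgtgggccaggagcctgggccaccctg
Eng: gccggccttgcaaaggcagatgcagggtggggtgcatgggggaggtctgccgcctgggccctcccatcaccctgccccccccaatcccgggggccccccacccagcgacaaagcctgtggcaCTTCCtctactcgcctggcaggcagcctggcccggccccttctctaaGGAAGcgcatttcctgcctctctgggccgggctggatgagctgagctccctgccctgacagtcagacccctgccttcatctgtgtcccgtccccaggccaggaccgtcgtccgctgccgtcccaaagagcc
Egfl7: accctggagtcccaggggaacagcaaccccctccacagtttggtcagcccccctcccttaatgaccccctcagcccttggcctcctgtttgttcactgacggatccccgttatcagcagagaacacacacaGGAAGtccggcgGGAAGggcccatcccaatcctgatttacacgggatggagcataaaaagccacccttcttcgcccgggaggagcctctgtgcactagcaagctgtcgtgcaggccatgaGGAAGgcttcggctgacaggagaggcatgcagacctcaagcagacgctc
Erg: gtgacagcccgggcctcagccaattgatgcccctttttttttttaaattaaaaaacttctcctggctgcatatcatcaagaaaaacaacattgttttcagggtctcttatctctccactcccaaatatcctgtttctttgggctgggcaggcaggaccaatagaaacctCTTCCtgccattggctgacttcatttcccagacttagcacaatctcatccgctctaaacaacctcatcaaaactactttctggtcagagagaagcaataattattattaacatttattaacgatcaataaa
Klf4: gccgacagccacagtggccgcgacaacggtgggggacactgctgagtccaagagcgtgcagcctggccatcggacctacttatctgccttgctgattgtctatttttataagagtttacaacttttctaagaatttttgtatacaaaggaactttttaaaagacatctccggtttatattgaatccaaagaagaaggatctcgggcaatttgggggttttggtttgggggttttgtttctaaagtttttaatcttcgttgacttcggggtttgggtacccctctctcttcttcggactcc
Edn1: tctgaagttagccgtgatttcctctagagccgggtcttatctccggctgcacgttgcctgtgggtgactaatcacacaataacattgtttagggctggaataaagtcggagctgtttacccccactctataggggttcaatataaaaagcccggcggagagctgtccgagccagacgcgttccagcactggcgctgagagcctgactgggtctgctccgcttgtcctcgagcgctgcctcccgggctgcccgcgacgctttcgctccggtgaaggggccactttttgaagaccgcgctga

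The letters GGAAG were found on either strand 1 time in the Nos3 promoter, 2 times in that of Eng, 3 times in the upstream one of Egfl7 and 1 time in that of Erg. The Klf4 and Edn1 windows and the downstream one of Egfl7 held no match to GGAAG. The letters are common, since 70.1% of 33469 rat promoters of the same 300 bases held them. The letters CACCC, read by Krüppel-like factors (KLF), were present in the promoters of Nos3 (2 matches), Eng (4), Egfl7 (1 upstream and 2 downstream) and Edn1 (1), and in 54.9% of all promoters. The shear stress element GAGACC, first described in genes induced by flow, had 1 match among these promoters, in that of Erg, against 16.5% of all promoters. AGATAA, the core of GATA factor sites, had 1 match each in the promoters of Erg, Klf4 and Edn1, against 11.6% of all promoters. Sites named GC box (GGGCGG, in 33.1% of all promoters) were found 1 time for Nos3 and 4 times for the downstream Egfl7 start, and a TATA box (TATAAA, in 14.2%) 2 times for Klf4 and 1 time for Edn1. The AP-1 letters TGANTCA, in 7.33% of all promoters, had no match here, and the MEF2 motif, in 3.29%, had 1, in the Erg promoter. These matches describe the letters of each window and are not measured binding sites.

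Levels are given below as CPM, the reads of a gene per 1000000 reads of its library after edgeR's TMM scaling. Differences are log2 fold changes of BAPN against Vehicle with the standard error (SE) from limma-voom, and the false discovery rate (FDR) is the Benjamini-Hochberg adjusted p of edgeR's quasi-likelihood test over all 11682 genes, with a threshold of 0.05. Library totals were 45039451 to 52241007 counts in the BAPN group and 19548203 to 22442050 in the Vehicle group, so the shallowest BAPN library held 2.01 times the counts of the deepest Vehicle library (exact permutation test of log2 totals, two-sided, p = 0.0286). Depth and treatment therefore cannot be told apart by sample. Thinning all libraries to equal totals left the same number of identity and flow-response genes past the threshold. It evens out the totals alone and cannot separate treatment from whatever made the totals differ. Over all tested genes 16.8% passed the threshold (9.25% lower and 7.5% higher in BAPN), and the groups did not overlap in CPM for 24.7%. The median log2 fold change of all tested genes was 0.02.

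All 5 identity genes had lower mean levels in BAPN-treated veins, with a median log2 fold change of -0.75, and 1 of the 5, Vwf, passed the threshold, beside 9.25% of all tested genes called lower. Vwf encodes von Willebrand factor, the adhesive glycoprotein that endothelial cells store in Weibel-Palade bodies and that tethers platelets. Its level was 102, 81.2, 85.4 and 58.5 CPM in BAPN 1 to 4 and 768, 269, 106 and 161 CPM in Vehicle 1 to 4. The lowest Vehicle vein lay just above the highest BAPN vein, so the groups did not overlap, and the Vehicle group was widely spread, with both females above both males. Mean Vwf was 81.8 ± 18.0 CPM in BAPN and 326 ± 302 in Vehicle (SD, n = 4 each), a log2 fold change of -1.99 ± 0.50 (SE) with an edgeR FDR of 0.0389. Without Vehicle 1, the highest vein, the change was -1.13 and the FDR 0.0670. The call was also lost without BAPN 1 (FDR 0.0639), BAPN 2 (0.0741), BAPN 3 (0.0966) or BAPN 4 (0.0907), and was kept in the other 3 sets of 7 libraries. In the single-gene exact permutation test, Vwf reached p = 0.0286, the smallest value that 4 rats against 4 can give.

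Cdh5 encodes VE-cadherin, the adhesion protein of endothelial junctions. It measured 152, 124, 96.8 and 69.5 CPM in BAPN 1 to 4, against 211, 108, 211 and 336 CPM in Vehicle 1 to 4. The groups overlapped through Vehicle 2, which was lower than BAPN 1 and 2, while the other Vehicle veins exceeded every BAPN vein. The means were 111 ± 35.4 and 217 ± 93.1 CPM (SD, n = 4 each), and the log2 fold change of -0.97 ± 0.34 (SE) did not pass the threshold in edgeR (FDR 0.0736). Without Vehicle 2 the change was -1.19 with an FDR of 0.0253.

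Egfl7, a secreted factor that guides vessel tube formation and whose intron carries the endothelial microRNA miR-126, showed the same arrangement of veins. Its level was 45.1, 42.0, 37.4 and 28.7 CPM in BAPN 1 to 4 and 58.3, 38.7, 67.1 and 64.0 CPM in Vehicle 1 to 4. Vehicle 2 again lay among the BAPN veins and the other Vehicle veins lay above them. Mean levels of 38.3 ± 7.13 and 57.0 ± 12.7 CPM (SD, n = 4 each) gave a log2 fold change of -0.58 ± 0.20 (SE) with an edgeR FDR of 0.0699, and without Vehicle 2 the change was -0.72 with an FDR of 0.0222. Agpat2, a lipid enzyme gene that overlaps Egfl7 in RefSeq, averaged 15.9 CPM in BAPN and 15.3 CPM in Vehicle.

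Eng encodes endoglin, a co-receptor for bone morphogenetic proteins and transforming growth factor β that endothelial cells use in arteriovenous patterning. It was present at 316, 238, 212 and 166 CPM in BAPN 1 to 4 and at 419.5, 267, 244 and 381 CPM in Vehicle 1 to 4. The groups overlapped, because BAPN 1 exceeded Vehicle 2 and 3. The log2 fold change from means of 233 ± 62.7 and 328 ± 85.5 CPM (SD, n = 4 each) was -0.49 ± 0.24 (SE), with an edgeR FDR of 0.170.

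Erg, the ETS factor named above, had the least certain difference of the identity genes. Its level was 32.4, 31.3, 17.6 and 15.9 CPM in BAPN 1 to 4 and 40.6, 18.9, 21.4 and 82.9 CPM in Vehicle 1 to 4. The groups overlapped, and a single vein, Vehicle 4, held the highest level by a wide margin. Means of 24.3 ± 8.71 and 41.0 ± 29.6 CPM (SD, n = 4 each) gave a log2 fold change of -0.75 ± 0.44 (SE) and an edgeR FDR of 0.267, and without Vehicle 4 the change was -0.15.

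BAPN 4, the only male treated with BAPN, had the lowest BAPN level of all 5. In females alone, 3 BAPN against 2 Vehicle veins, the log2 fold change was -2.53 for Vwf (edgeR FDR 0.0504) but -0.36 for Cdh5 (FDR 0.486), -0.43 for Eng, -0.23 for Egfl7 (FDR 0.506) and -0.14 for Erg. DESeq2, which called 27.4% of all tested genes, called 3 of the 5 identity genes lower, namely Vwf (FDR 0.00943), Cdh5 (0.0194) and Egfl7 (0.0321). In whole veins, fewer endothelial cells and less RNA of these genes per cell cannot be told apart.

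**Figure D1:**
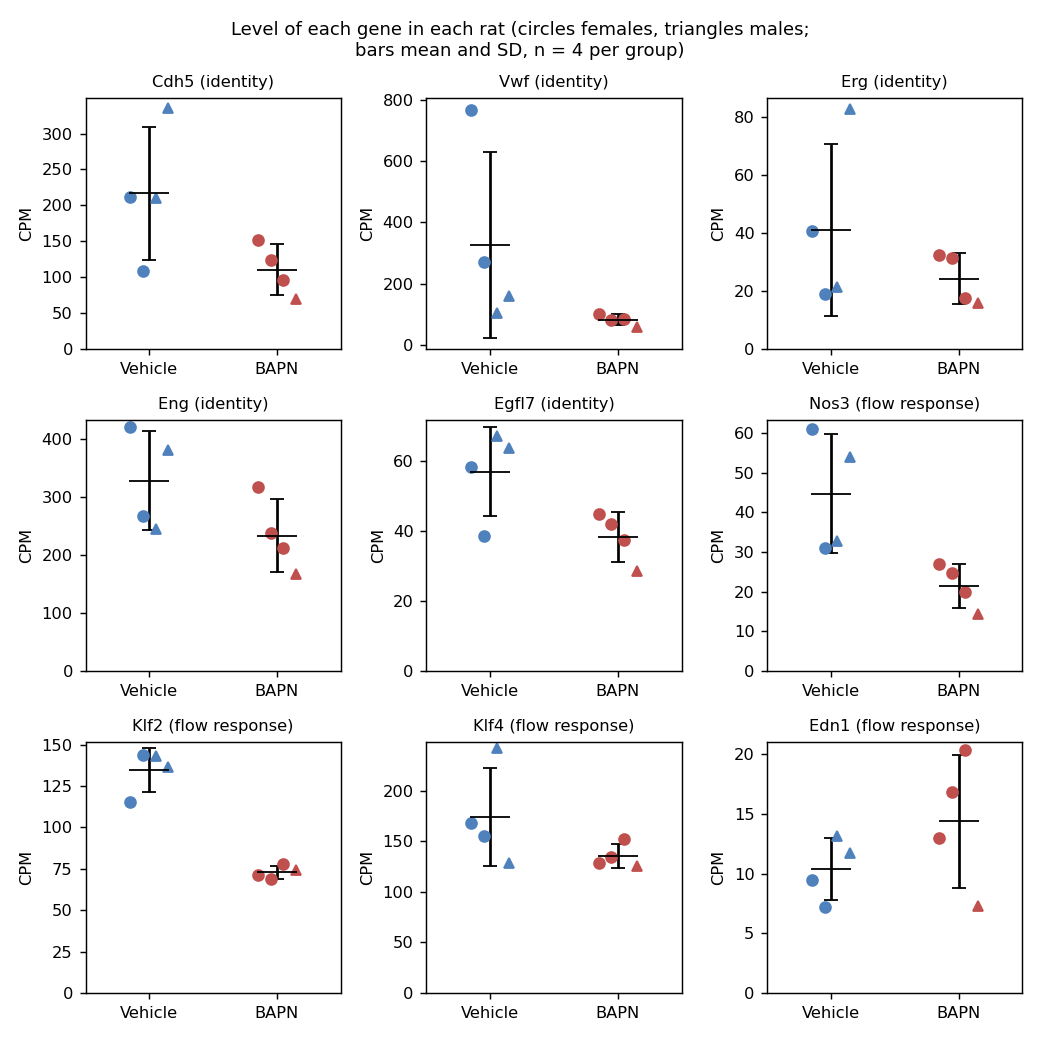
Level in CPM (y axis, linear) of each of the 9 genes in every rat, by group, with circles for females, triangles for males and bars for the mean and SD (n = 4 each). Klf2 shows 4 BAPN veins between 68.6 and 77.7 CPM, below Vehicle veins at 115.5 CPM or more, whereas Cdh5, Erg, Eng, Egfl7, Klf4 and Edn1 overlap between groups.

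Of the 4 flow-response genes, Klf2 and Nos3 fell in BAPN-treated veins, while Klf4 and Edn1 did not pass the threshold. Read against the background of 9.25% of tested genes called lower, this is 2 of 4, with a median log2 fold change of -0.62. Klf2 encodes the zinc-finger factor that laminar shear induces in endothelium, and it is also made by resting T cells. It measured 71.4, 68.6, 77.7 and 74.1 CPM in BAPN 1 to 4 and 115.5, 143, 143 and 136 CPM in Vehicle 1 to 4. The groups stood well apart and both were tight, more so than for any other gene of the 9 by the ratio of SD to mean in Vehicle. Mean Klf2 was 72.9 ± 3.86 CPM in BAPN and 135 ± 13.1 in Vehicle (SD, n = 4 each), a log2 fold change of -0.88 ± 0.10 (SE) with an edgeR FDR of 0.00413.

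The Klf2 call held in all 8 sets of 7 libraries, with log2 fold changes from -0.95 to -0.85 and edgeR FDRs from 0.00660 to 0.0163. In females alone the change was -0.84 and the FDR 0.0587. DESeq2 also called it (FDR 1.25e-13), and the single-gene exact permutation test gave p = 0.0286. Eps15l1, an endocytic adaptor gene that overlaps Klf2 in RefSeq, averaged 55.2 CPM in BAPN and 52.5 CPM in Vehicle, a log2 fold change of 0.07 with an edgeR FDR of 0.587.

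Nos3 encodes endothelial nitric oxide synthase, the source of the nitric oxide that relaxes the underlying smooth muscle. Its level was 26.9, 24.6, 19.95 and 14.3 CPM in BAPN 1 to 4 and 60.9, 31.1, 32.8 and 53.8 CPM in Vehicle 1 to 4. Every Vehicle vein lay above every BAPN vein, with Vehicle 2 and 3 close to the highest of them. Mean Nos3 was 21.5 ± 5.57 CPM against 44.7 ± 15.0 (SD, n = 4 each), and the log2 fold change was -1.06 ± 0.27 (SE) with an edgeR FDR of 0.0305 and an exact permutation p of 0.0286. Nos3 no longer passed when BAPN 3 was left out (FDR 0.0829), BAPN 4 (0.0644), Vehicle 1 (0.0836) or Vehicle 4 (0.0648), with log2 fold changes between -1.20 and -0.87 over all 8 sets. In females alone the change was -0.95 with an FDR of 0.122. DESeq2 called Nos3 with an FDR of 0.00207. Atg9b, an autophagy gene that overlaps Nos3 in RefSeq, held 6 to 62 counts per library, against mean levels of 1.07 CPM in BAPN and 0.932 in Vehicle.

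Klf4, the second shear-induced factor of this family, is also made by smooth muscle cells that change phenotype and by macrophages. It measured 129, 135, 153 and 126 CPM in BAPN 1 to 4 and 168, 156, 242 and 129 CPM in Vehicle 1 to 4. Vehicle 4 lay among the BAPN veins, so the groups overlapped, and Vehicle 3 stood highest. The log2 fold change was -0.36 ± 0.19 (SE) from means of 135 ± 12.1 and 174 ± 48.5 CPM (SD, n = 4 each), with an edgeR FDR of 0.193, and without Vehicle 3 it was -0.16.

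Edn1, the gene of the vasoconstrictor peptide endothelin-1, was the only one of the 9 with a higher mean in BAPN. Its level was 13.0, 16.9, 20.4 and 7.28 CPM in BAPN 1 to 4 and 9.46, 7.22, 13.1 and 11.8 CPM in Vehicle 1 to 4. The groups overlapped, with BAPN 4 next to the lowest Vehicle vein and Vehicle 3 level with BAPN 1. Means of 14.4 ± 5.61 and 10.4 ± 2.60 CPM (SD, n = 4 each) gave a log2 fold change of 0.47 ± 0.38 (SE) and an edgeR FDR of 0.306. The change ranged from 0.25 without BAPN 3 to 0.68 without BAPN 4, and was 1.01 in females alone (edgeR FDR 0.105).

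**Figure D2:**
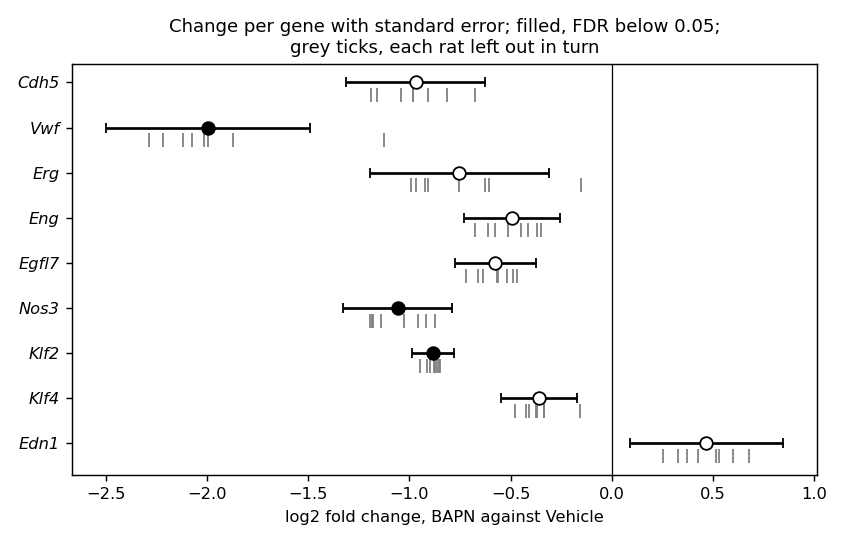
Log2 fold change of BAPN against Vehicle (axis in log2 units, 0 for no difference) with its SE for each of the 9 genes, filled where the edgeR FDR is below 0.05, with grey ticks for the change with each rat left out in turn. Vwf at -1.99, Nos3 at -1.06 and Klf2 at -0.88 pass an edgeR FDR of 0.05, and Edn1 at 0.47 is the only gene to the right of 0.

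To ask whether flow-response genes moved more or less than other endothelial genes, each was set against the mean log2 CPM of such genes in the same vein. The 5 identity genes averaged 6.13 ± 0.39 log2 CPM in BAPN and 6.96 ± 0.50 in Vehicle (SD, n = 4 each), with overlap between groups. The 4 flow-response genes averaged 5.35 ± 0.26 and 5.81 ± 0.17, narrowly without overlap, as the nearest veins stood at 5.55 in BAPN and 5.57 in Vehicle. The mean of flow-response minus identity genes was -0.78 ± 0.28 in BAPN and -1.15 ± 0.46 in Vehicle, a difference of 0.37 log2 units that lay within the spread of the veins. It ranged from 0.22 without Vehicle 1 to 0.55 without Vehicle 3.

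The single flow-response genes differed in this respect. Relative to the identity genes, Nos3 stood at -1.80 to -1.69 log2 units in BAPN veins and at -1.58 to -1.52 in Vehicle veins, so that it was lower by 0.21 log2 units without overlap. Against 27 other endothelial genes, a reference chosen after seeing the data, the difference of Nos3 was -0.27 and the groups overlapped. Klf2, despite its fall in CPM, differed between groups by only -0.05 log2 units relative to the identity genes and -0.11 relative to the 27 genes, and the groups overlapped on both scales. Klf4 was 0.50 and 0.44 log2 units higher in BAPN on the same scales, with overlap.

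Edn1 showed the reverse pattern to Klf2, since it did not differ in CPM beyond the spread but did so relative to the endothelial reference genes. The mean of the 27 reference genes itself differed by -0.76 log2 units between BAPN and Vehicle. Set against the 27 other endothelial genes, it stood at -1.67 to -0.74 log2 units in BAPN veins and at -2.70 to -2.02 in Vehicle veins. The groups did not overlap, and the mean difference was 1.17 log2 units, beside 1.23 against the 5 identity genes, where the nearest veins stood at -2.84 in BAPN and -2.85 in Vehicle. These relative levels carry no p, because the reference genes were themselves lower in BAPN and were chosen with results known. Klf2, Klf4 and Edn1 also have sources outside the endothelium, whose part in these ratios was not tested. The same holds for any source of the reference genes outside the endothelium.

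**Figure D3:**
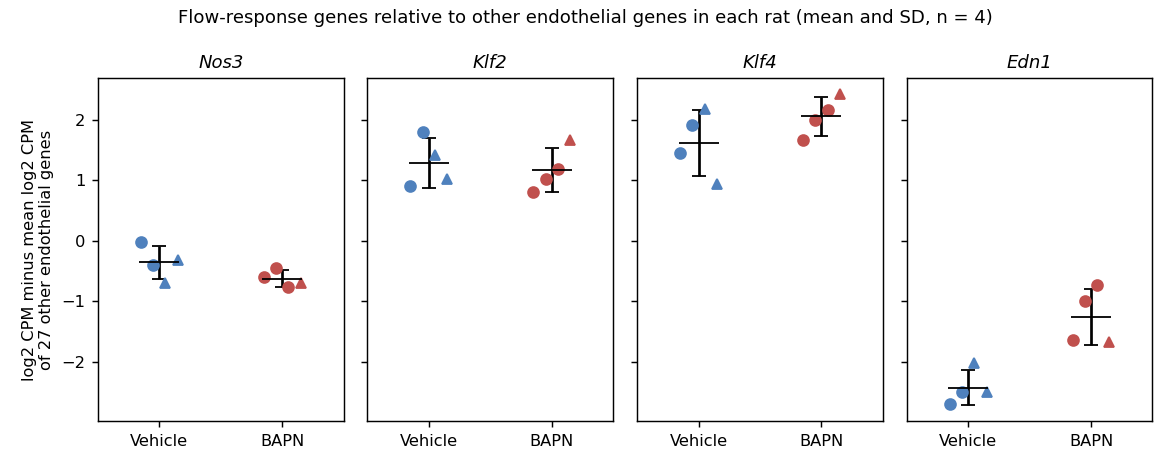
Log2 CPM of each flow-response gene minus the mean log2 CPM of 27 other endothelial genes (y axis, log2 units) in every rat, with circles for females, triangles for males and bars for the mean and SD (n = 4 each). Edn1 lies between -1.67 and -0.74 in BAPN and between -2.70 and -2.02 in Vehicle, while Nos3, Klf2 and Klf4 overlap.

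Of 27 other tested endothelial genes, 26 had lower means in BAPN, and the median log2 fold change was -0.79 beside 0.02 for all genes. In edgeR 13 passed the threshold lower and 0 higher, beside 9.25% and 7.5% of all tested genes. At an unadjusted p below 0.05 the counts were 18 lower and 0 higher, and DESeq2 called 17 lower and 0 higher. The count of 13 was 6 with BAPN 2 left out, 5 with BAPN 3, 4 with BAPN 4, 2 with Vehicle 1, 4 with Vehicle 3 and 3 with Vehicle 4 left out. It was 4 with sex as a covariate, 2 with a replicate block and 0 in females alone (12 at an unadjusted p below 0.05). Tek, the angiopoietin receptor Tie2, averaged 42.0 CPM in BAPN and 99.3 in Vehicle, a log2 fold change of -1.24 ± 0.19 (SE, n = 4 each) with an edgeR FDR of 0.00890 that held in all 8 sets of 7 libraries. Ptprb, the endothelial phosphatase VE-PTP, which acts on Tek and VE-cadherin, fell by 1.46 on the log2 scale (edgeR FDR 0.0480), a call kept only without BAPN 1 or Vehicle 2. Plvap, the diaphragm protein of fenestrae and caveolae, averaged 118 CPM in BAPN and 247 in Vehicle (log2 fold change -1.07, edgeR FDR 0.0595). Tie1, the orphan receptor paired with Tek and the most abundant of the 27 by CPM, measured 202 and 251.7 CPM (-0.32, FDR 0.198).

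Genes upstream of KLF2 and KLF4, which carry the shear signal through mechanosensors, the MEKK3-MEK5-ERK5 kinases, MEF2 factors and the CCM complex, numbered 15 tested. The ERK5 gene Mapk7, at 0 to 10 counts per library, was not among the tested genes. In edgeR 3 were called lower and 1 higher, beside 9.25% and 7.5% of all tested genes, with a median log2 fold change of -0.27. The 4 calls became 2 without BAPN 2, BAPN 3 or Vehicle 4 and 1 without Vehicle 1. Hdac7, a class IIa histone deacetylase that binds MEF2 factors, averaged 39.9 CPM in BAPN and 81.5 in Vehicle, a fall by 1.03 on the log2 scale (edgeR FDR 0.0161) that was lost without Vehicle 1. Mef2d, a MEF2 factor, and Gna11, a G protein subunit, were the others called lower, at -0.54 and -0.50, and are named here after their values were seen. Each kept its call in 2 of 8 sets of 7 libraries, Mef2d without BAPN 1 or Vehicle 3 and Gna11 without BAPN 4 or Vehicle 3. Pdcd10, the CCM3 protein of the complex that restrains MEKK3, rose from 49.0 CPM in Vehicle to 87.0 in BAPN (log2 fold change 0.83 ± 0.14, SE, n = 4 each, edgeR FDR 0.00965) and held in all 8 sets of 7 libraries. The mechanosensors Piezo1 (-0.27, FDR 0.126) and Plxnd1 (-0.47, FDR 0.108) did not pass the threshold.

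Among 14 tested targets of KLF2 and KLF4, 7 were lower and 7 higher, with a median of -0.02. In edgeR 1 was called lower, beside 9.25% of all tested genes. The called gene, Thbd, encodes the anticoagulant receptor thrombomodulin. It averaged 62.0 CPM in BAPN and 120 in Vehicle, with a log2 fold change of -0.95 ± 0.23 (SE, n = 4 each) and an edgeR FDR of 0.0248. That call was lost without BAPN 3, BAPN 4, Vehicle 1 or Vehicle 3, and without Vehicle 2 the list held 3 calls, all lower. Hmox1, the haem-degrading enzyme that macrophages also make in quantity, measured 222 CPM in BAPN and 136 in Vehicle (0.70, edgeR FDR 0.0536). Plat, tissue plasminogen activator, measured 209 and 170 CPM (0.30, FDR 0.165).

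All 11 tested members of the rest of the KLF family had lower means in BAPN, with a median of -0.51. Klf11 is also among the targets. Of the 11, 2 were called lower (5 without Vehicle 2), beside 9.25% of all tested genes. Klf12 fell by 1.37 on the log2 scale (edgeR FDR 0.0215, lost without Vehicle 1), and Klf15 fell by 0.89 (FDR 0.0318, lost without BAPN 1, BAPN 2, BAPN 3, Vehicle 1 or Vehicle 4). Both are of low abundance, at 3.36 and 4.03 CPM in BAPN. The abundant members Klf6 (-0.33, FDR 0.190) and Klf3 (-0.31, FDR 0.0813) did not pass.

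In the nitric oxide pathway, 4 of 18 tested genes were called lower and 2 higher in edgeR, beside 9.25% and 7.5% of all tested genes. The median was 0.15. The 6 calls became 3 with BAPN 1, BAPN 3, BAPN 4 or Vehicle 3 left out, 2 with Vehicle 1 or Vehicle 4, and 9 with Vehicle 2 left out. Gucy1a1, a subunit of the soluble guanylate cyclase that nitric oxide activates, averaged 32.6 CPM in BAPN and 88.3 in Vehicle, a log2 fold change of -1.44 ± 0.27 (SE, n = 4 each, edgeR FDR 0.0146) held in all 8 sets of 7 libraries. Gucy1a2, the scarcer α subunit, fell by 2.29 on the log2 scale (FDR 0.0409, kept only without BAPN 1 or Vehicle 2), and Gucy1b1, the β subunit named after its value was seen, had a log2 fold change of -0.96 (FDR 0.0638). Cav1 and Cav2, the caveolins, of which Cav1 holds the synthase inactive, had log2 fold changes of -0.65 (FDR 0.0921) and -0.66 (FDR 0.0967). Asl, an enzyme of arginine synthesis named after its value was seen, was among the genes called higher (0.45, FDR 0.0457), a call kept in 1 of 8 sets of 7 libraries, that without Vehicle 3.

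In the endothelin pathway, all 5 tested genes besides Edn1 had lower means in BAPN, with a median of -0.60. Of these, 1 was called lower, beside 9.25% of all tested genes. Ednra, the receptor through which smooth muscle contracts to endothelin-1, averaged 42.8 CPM in BAPN and 80.8 in Vehicle, a log2 fold change of -0.92 ± 0.15 (SE, n = 4 each, edgeR FDR 0.00986) held in all 8 sets of 7 libraries. Ece1, the enzyme that cuts the precursor to the active peptide, had a log2 fold change of -0.61 (FDR 0.0829). Edn2, a gene of another endothelin, was at 0 in every library.

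Of 10 tested genes of endothelial adhesion and activation, 2 were called lower and 1 higher, beside 9.25% and 7.5% of all tested genes. The median was -0.06. F3, tissue factor, fell by 0.87 on the log2 scale (edgeR FDR 0.0482, kept only without Vehicle 2 or Vehicle 4), and Cx3cl1, the membrane-bound chemokine fractalkine, fell by 0.92 (FDR 0.0202, lost without BAPN 3 or Vehicle 1). Icam1, the leukocyte adhesion receptor named after its value was seen, was the one called higher (0.41, FDR 0.0417), and it kept the call in 1 of 8 sets of 7 libraries, that without Vehicle 2. The 3 calls of this list became 1 with BAPN 1, BAPN 2, BAPN 4 or Vehicle 3 left out and 0 in edgeR with BAPN 3 or Vehicle 1 left out (4 and 3 genes at an unadjusted p below 0.05).

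**Figure D4:**
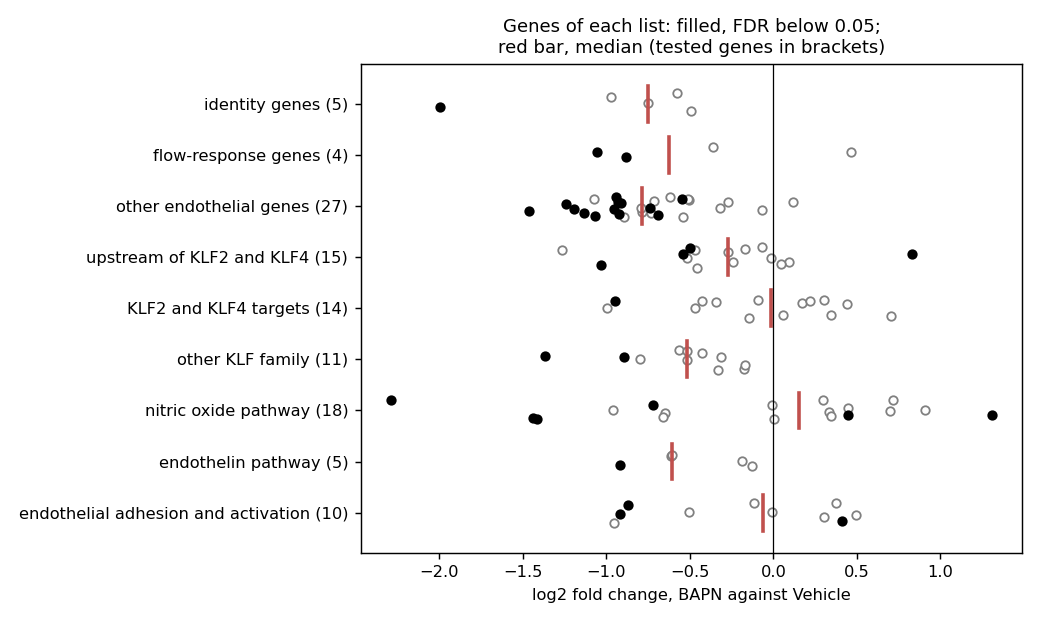
Log2 fold change of BAPN against Vehicle (x axis) for each tested gene of the 2 lists of members and the 7 pathway lists, filled where the edgeR FDR is below 0.05, with a red bar at the median of each list. The medians of the identity genes (-0.75) and of the 27 other endothelial genes (-0.79) lie further left than those of the KLF2 and KLF4 targets (-0.02) and the nitric oxide pathway (0.15).

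Genes that varied most like 2 of the members over the 8 libraries, which share the treatment groups and the depth difference, were named by Pearson's r of log2 CPM as a description. Those nearest to Cdh5 were Mpzl1 (r = 0.981), Afap1l1 (0.979, also among the 27 endothelial genes), Syde1 (0.979) and Zfp9 (0.977). Those nearest to Klf2 were Zkscan8 (0.966), Krba1 (0.964), Rps6ka4 (0.964) and R3hdm4 (0.961), each called lower in BAPN, with log2 fold changes of -0.63, -0.67, -0.37 and -0.44. The call of Zkscan8 was lost without Vehicle 1, that of Krba1 in every set but the one without Vehicle 1, that of Rps6ka4 without BAPN 2, BAPN 3 or Vehicle 1, and that of R3hdm4 without BAPN 2, Vehicle 1 or Vehicle 4.

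Markers of some other cells of the vein also differed between groups, and their part in the results above was not tested. The counts below stand beside 9.25% of all tested genes called lower and 7.5% called higher. Smooth muscle markers were lower for 10 of 10 genes, 7 of them called, with a median of -1.25 and summed levels of 1785 to 4539 CPM in BAPN and 3652 to 6561 in Vehicle. The count of 7 was 4 with BAPN 1 left out, 3 with BAPN 3, 3 with BAPN 4, 3 with Vehicle 3 and 4 with Vehicle 4 left out. Pericyte markers had 4 of 8 called lower (median -0.81), summing to 1400 to 1707 CPM in BAPN and 1807 to 2570 in Vehicle without overlap. Fibroblast markers had 1 of 10 called lower (median -0.51), with overlapping sums, and 4 without Vehicle 2. Lymphatic endothelial markers, which some endothelial genes share, had 1 of 8 called lower (2 without Vehicle 2, median -0.41), with sums of 506 to 636 CPM in BAPN and 470 to 961 in Vehicle. For macrophage markers, 0 of 10 were called in edgeR (1 at an unadjusted p below 0.05 and 1 in DESeq2, both higher), with a median of 0.31, yet their sum, of which the lysozyme gene Lyz2 made up 83.1%, was 28566 to 41729 CPM in BAPN and 6490 to 23255 in Vehicle. T cell markers had 2 of 9 called higher (median 1.02), and 1 with BAPN 1, BAPN 2, BAPN 3 or Vehicle 4 left out. Their sums were 381 to 467 CPM in BAPN and 307 to 521 in Vehicle, of which Cd4 made up 81.8% with a log2 fold change of -0.07, while Cd8a was called higher (1.33, edgeR FDR 0.0281). B cell and plasma cell markers had 2 of 4 called higher (median 2.59, 1 without Vehicle 3 and 3 without BAPN 4), which no longer passed with any 1 of BAPN 1, BAPN 2, BAPN 3, Vehicle 1, Vehicle 2 or Vehicle 4 left out. Of 3 tested platelet and megakaryocyte markers, which include cells that also make Vwf, 1 was called lower, Itga2b (-1.22, edgeR FDR 0.0401, kept only without Vehicle 3), and the list's median was 0.54. Their sums, 83.9% of them Pf4 (log2 fold change 0.63, FDR 0.114), were 69.8 to 129 CPM in BAPN and 45.4 to 93.0 in Vehicle, and Gp1bb was at 0 in every library. Adipocyte markers had 1 of 7 called lower, a call lost with any 1 library but Vehicle 4 left out, and 2 without Vehicle 4. In edgeR 0 genes were called among skeletal muscle (2 tested), Schwann cell (6), keratinocyte (2) and red cell (5) markers, where an unadjusted p below 0.05 was reached by 1, 1, 0 and 0 and a DESeq2 call by 1, 0, 0 and 0. Lyz2, Cd4, Cd8a, Itga2b and Pf4 are named here after their values were seen.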

How the data were processed

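Total RNA was extracted with Trizol and columns from RNAlater-preserved outflow veins of 8 rats, treated with DNAse, depleted of ribosomal RNA, made into stranded libraries and sequenced on a NextSeq500. The submitters' processing notes name bcl2fastq 2.17, Trim Galore and STAR. The genome build, the counter and its strand setting are not given in the sources used here, so reads of overlapping genes on opposite strands may not have been kept apart. The authors deposited raw counts per gene, not normalized, with an Ensembl ID and a gene name in each row, 1 file per library. In all, 177 symbols stood for more than 1 gene, and genes were matched by a symbol held by 1 row.

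Genes with a mean of at least 100 counts after scaling by DESeq2 size factors were kept, as in the study's methods. The 11682 genes left held 99.5 to 99.66% of the counts of each library. Counts were fitted with edgeR 4.0.16 (R 4.3.3, TMM scaling, quasi-likelihood test, treatment as the only term), SEs came from limma 3.58.1 (voom), and DESeq2 1.42.0 was an alternative. Log2 CPM used a prior count of 2. The test steps were checked on simulated data. Exact permutation tests were two-sided over 70 arrangements. No 2 libraries agreed within sampling noise, with a chi-square per degree of freedom of 68.6 or more for every pair within a group. Alternatives were other scalings and filters, DESeq2, sex as a covariate, females alone, a replicate block, libraries thinned to equal totals and each library left out.

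The 10 genes, the 7 pathway lists and the 13 lists of cell type markers were chosen with earlier results of these data known. Beside the 10 genes, the text names from each pathway list the 2 genes with the highest mean CPM and the 2 called genes with the largest log2 fold change, and the 4 genes most like Cdh5 and the 4 most like Klf2, except where an item is not reported here. Ptgis, Prkg1, Kell and Ackr1 were listed for a pathway and not analysed here. Motifs were searched on both strands of each promoter, overlapping matches included.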

Additional observations from a re-analysis of the deposited data

Results flagged for a closer look

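In 136 groups of 4 libraries, 100 of them levels of the 50 genes examined and 36 of them means and relative levels, 6 held a vein set apart from the other 3 by Dixon's ratio (95% critical value 0.829), where chance alone picks about 1 group in 20. The CPM of the 9 endothelial genes gave none of the 6. Piezo1, the stretch-activated channel, measured 153 CPM in Vehicle 3 and 185 to 189 CPM in the other Vehicle veins (ratio 0.895). Krba1, one of the genes most like Klf2, measured 9.60 CPM in Vehicle 1 and 13.0 to 13.4 CPM in the others (ratio 0.875). Pf4, the platelet chemokine, measured 119 CPM in BAPN 4 and 62.5 to 70.5 CPM in the other BAPN veins (ratio 0.858). The other 3 were log2 levels relative to the mean of the 27 other endothelial genes. Egfl7 stood at 0.33 in Vehicle 3 and at -0.09 to -0.07 in the other Vehicle veins (ratio 0.954). Vwf stood at 1.27 in BAPN 2 and at 1.32 to 1.33 in the other BAPN veins (ratio 0.942). The mean of the flow-response genes stood at 0.054 in BAPN 1 and at 0.39 to 0.46 in the other BAPN veins (ratio 0.841).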

How the results depend on the processing

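All 9 endothelial genes kept the direction of their change in 18 of 18 alternatives run. Over all tested genes, the 1957 calls of edgeR became 3202 with DESeq2, 930 with sex as a covariate, 89 in females alone and 556 with a replicate block, and ranged from 397 (without Vehicle 1) to 2215 (without Vehicle 2), with 1224 when BAPN 2 was left out, 745 for BAPN 3, 856 for BAPN 4, 1210 for Vehicle 3 and 963 for Vehicle 4. Of the 5 identity genes, DESeq2 called 3, edgeR in females alone 0 (1 at an unadjusted p below 0.05) and edgeR with a replicate block 0 (2 at an unadjusted p below 0.05), and leaving out 1 library gave 0 to 3, with 0 when any 1 of the BAPN veins or Vehicle 1 was left out and 3 without Vehicle 2. Of the 4 flow-response genes, edgeR called 0 in females alone (3 at an unadjusted p below 0.05), 1 with a replicate block, which was Klf2 (FDR 0.0346), and 1 to 2 without 1 library. The 30 calls among 99 tested pathway genes became 47 with DESeq2, 11 with sex as a covariate, 0 in females alone (38 at an unadjusted p below 0.05) and 4 with a replicate block, and ranged from 6 (without Vehicle 1) to 39 (without Vehicle 2), with 16 when BAPN 2 was left out, 12 for BAPN 3, 15 for BAPN 4, 16 for Vehicle 3 and 13 for Vehicle 4. The subsets hold fewer libraries, and the cause of the other shifts was not tested. The BAPN minus Vehicle difference in the mean of flow-response minus identity genes stayed above 0 in the alternatives run, at 0.22 to 0.55 with 1 library left out, and was 0.31 with the 27 other endothelial genes as reference, chosen after seeing the data.

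Equal replicate numbers did not pair the rats: the correlation of same-numbered veins' deviations from their group means ran from -0.265 to 0.269, and 1 of 4 numbers correlated best with its own. Scaling by total counts alone shifted the median of all genes by -0.06 log2 units, and put 69.7% of its calls lower in BAPN beside 55.2% in TMM scaling. For the 31 other genes named by the stated rule, 449 alternative values kept direction and side of the threshold, 93 lost a call, 16 gained one and 0 reversed. Thinning all libraries to equal totals gave 1867 calls over all genes, and 4 rats per group limit precision.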

Other observations

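The effect of BAPN was also compared between sexes by an interaction term in edgeR, with 1 BAPN male, so each value rests on that vein, whose spread is assumed to equal that of the other groups. The lowest FDR among the 9 endothelial genes was 0.240, for Edn1 (male minus female effect -1.78 log2 units, unadjusted p = 0.00406), and the highest was 0.931, for Klf2 (-0.08). For Cdh5 the difference was -1.61 log2 units (FDR 0.344) and for Egfl7 -0.96 (FDR 0.323), none of them past the threshold.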
